A study of Mus musculus with 39 samples.

Results

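The TRIM family (tripartite motif proteins) was taken as every gene whose symbol is Trim, a number and at most 1 further letter. The 3 tables of dendritic cell (DC) libraries held 67 such genes, among 24421, 24421 and 24411 genes, and the table of T cell libraries held 24 among 7830. RNA was sequenced from 39 libraries of cells sorted from popliteal and inguinal lymph nodes of C57BL/6 mice of 8 to 12 weeks. The mice had received nanoparticles with the adjuvant CpG, with or without a protein antigen, by injection into the hock, or had not been immunized. Per the design text of the series, mice had been engrafted with OT-I and OT-II T cells, which recognize ovalbumin (OVA), and the particles carried a rhodamine dye.

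The time course holds wild-type DC at 12 h and 24 h after OVA-CpG nanoparticles, at 12 h and 24 h after CpG nanoparticles, and from non-immunized mice, with 2 libraries of each. In the costimulation experiment at 12 h, DC came from mice labelled Cd80/86 -/- that received OVA particles and OT cells, from wild-type mice with OVA particles and OT cells, from wild-type mice with OVA particles and no OT cells named in the label, and from wild-type mice with BSA particles and OT cells, again with 2 libraries each. Another DC experiment compares OVA-CpG, BSA-CpG and no immunization at 20 h with 5 libraries each. CD4+ OT-II T cells were sequenced at 20 h after OVA-CpG or BSA-CpG, with 3 libraries each. Labels of the time course and of the experiment with 5 replicates do not say which mice carried OT cells, and no label says whether replicates came from separate animals, so p-values measure only the spread between these libraries, which may be technical.

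Most TRIM proteins carry a RING domain that transfers ubiquitin, B-box and coiled-coil segments that assemble the protein, and a variable C-terminal domain that picks the target. Many regulate antiviral and Toll-like receptor signalling, and type I interferon induces a number of them, while others act in chromatin, muscle or neurons. CpG DNA is a ligand of Toll-like receptor 9, which DC use to sense microbial DNA and to start interferon and cytokine production. In the mouse, relatives of primate TRIM5 form a cluster on chromosome 7, and RefSeq (GRCm38.p6) placed 15 members on that chromosome. Trim6, Trim34a, Trim5, Trim12a, Trim34b, Trim12c, Trim30b, Trim30a and Trim30d were neighbours there, in that order.

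Of the 67 members, 33 passed the filter on low counts in at least 1 DC experiment and were tested there. The number tested was 26 in the time course, 25 in the costimulation experiment, 31 in the experiment with 5 replicates and 22 in T cells. The other 34 were not tested in DC. Over all 33 DC libraries, 14 of them had no count (Trim9, Trim17, Trim31, Trim42, Trim50, Trim52, Trim54, Trim58, Trim60, Trim61, Trim67, Trim72, Trim75 and Trim80). Another 6 had 1 to 3 counts (Trim15, Trim34b, Trim38, Trim43c, Trim55 and Trim71), and 14 had more, up to 221 counts in all for Trim37 (also Trim7, Trim10, Trim13, Trim23, Trim29, Trim40, Trim43a, Trim45, Trim46, Trim47, Trim63, Trim66 and Trim69). These include the muscle RING proteins Trim54, Trim55 and Trim63. A member that passed the filter only through the group where it is high had to differ, so counts below stand beside the share of all tested genes called.

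Sequence around the gene starts was searched because several genes of the chromosome 7 cluster were called higher after immunization, as described below. The motif was GAAA, any 2 bases and GAAA again, on either strand (TTTC, any 2 bases and TTTC when read from the other), the core of the interferon-stimulated response element, which interferon regulatory factors bind. RefSeq promoter windows were available for 52 of 67 members and 9 held a match, against 1079 of all 27025 genes (3.99%). Among the 10 members called higher than non-immunized in at least 1 comparison described below, 9 had a window and 6 of these held a match. Of the 22 other members tested against non-immunized DC, 14 had a window and 3 held a match, and of the 35 that were not tested 29 had a window and none held a match. The members were split by calls from these same data, and several are copies with near-identical windows. These counts are therefore not independent, and no link between match and call was tested. A second motif, TTC, any 3 bases and GAA, was also searched. It matched windows of Trim15, Trim31, Trim38, Trim45 and Trim46, none of them tested in DC, and those of 2582 of 27025 genes (9.55%). A match describes letters and is not a site of binding. The matched windows are shown 5′ to 3′ in the direction of the gene, with the build GRCm38.p6 and the matched letters in capitals; the members called higher in at least 1 comparison come first, then those tested and not called higher.
Trim30a (chr7:104465210-104465239, minus strand): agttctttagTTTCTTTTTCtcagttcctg
Trim30a second start (chr7:104446104-104446133, minus strand): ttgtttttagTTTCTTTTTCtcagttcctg
Trim30d (chr7:104507871-104507900, minus strand): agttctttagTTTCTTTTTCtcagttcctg
Trim12a (chr7:104315466-104315495, minus strand): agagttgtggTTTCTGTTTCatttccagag
Trim12c (chr7:104353359-104353388, minus strand): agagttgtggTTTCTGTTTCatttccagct
Trim34a (chr7:104244457-104244486, plus strand): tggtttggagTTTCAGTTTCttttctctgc
Trim21 (chr7:102565447-102565476, minus strand): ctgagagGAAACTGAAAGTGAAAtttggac
Trim5 (chr7:104288136-104288165, minus strand): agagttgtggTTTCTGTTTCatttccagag
Trim26 (chr17:36836979-36837008, plus strand): cttccgaTTTCACTTTCCTTTTCtcgggcc
Trim2 (chr3:84212791-84212820, minus strand): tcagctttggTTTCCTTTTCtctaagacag

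The windows of Trim30d and of the first start of Trim30a were identical over 30 bases, as were those of Trim5 and Trim12a, and Trim12c matched both of these at 28 of 30 letters. The first matched base lay 36 bases before the gene start in Trim30a, 41 before it in Trim30d, 29 before it in Trim12c and 49 before it in Trim5. It lay 10 bases after the start in Trim12a and Trim34a, 13 after it in Trim21, 28 after it in Trim2 and 160 before it in Trim26. Trim21 and Trim26 each held 2 overlapping matches. No window of Trim25, Trim30b or Trim56 held these letters, and Trim14 had no window.

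Sequence shared between members also limits how reads are divided among them. In GENCODE M21 transcripts, 39.8% of the 50-base words of Trim34a occurred in another Trim gene, 29.5% of those of Trim5, 28.8% of those of Trim12c and 20.8% of those of Trim12a. The shares were 7.49% for Trim30d, 6.53% for Trim30a and 0.414% for Trim30b. Over the last 500 bases of the transcripts they were 25.8% for Trim5, 22.2% for Trim34a, 16.9% for Trim30d and 10.9% for Trim12c, and 0% for Trim12a, Trim30a and Trim30b. Values of Trim34a, Trim5, Trim12a, Trim12c and Trim30d are therefore uncertain as to the split among these copies, since how reads that match several genes were counted is not given in the sources used here.

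In the libraries labelled DC of the time course, Trim30a, Trim30b, Trim30d and Trim34a of the chromosome 7 cluster and the RING ligase Trim25 rose in each of the 4 comparisons of immunized with non-immunized mice. Trim12c and the RING ligase Trim21 rose in 3 of these, Trim12a in 1 and Trim5 in none. Trim30b passed the filter on low counts only through libraries of immunized mice, so its calls are no support for a change. At 12 h after OVA-CpG nanoparticles 9 of 26 tested members were higher than in non-immunized DC and 1 was lower, where 13.6% of all tested genes were called in either direction (9.56% higher and 4.04% lower). At 24 h the count was again 9 higher and 1 lower of 26, against a background of 14.1% (10.2% higher and 3.92% lower). After CpG nanoparticles alone, 5 members were higher and none lower at 12 h, against 16.3% of all genes (11.6% higher and 4.65% lower). At 24 h after CpG 10 were higher and none lower, against 11% (7.96% higher and 3.05% lower). Of the 7 tested cluster genes 5 and 5 were higher at 12 h and 24 h after OVA-CpG, and 4 and 6 at these times after CpG. The share of members called higher at 12 h after CpG alone was thus the nearest of these to the share over all genes. Median log2 fold changes of the members were 0.19, 0.31, 0.07 and 0.53 in that order, beside medians of all tested genes of -0.03, -0.03, -0.02 and 0.00. These comparisons share the 2 non-immunized libraries, and a gene was called when its Benjamini-Hochberg adjusted p in edgeR's quasi-likelihood test was under 0.05. Levels are CPM, counts divided by the library total and scaled by TMM factors. DC here names the label: in the 2 non-immunized libraries the T cell marker Cd3e had 225 to 242 CPM and the DC marker Flt3 16 to 23.6 CPM. Immunized time-course libraries had 87.2 to 183 CPM of Cd3e and 23 to 147 CPM of Flt3. Non-immunized libraries of the experiment with 5 replicates had 0 to 2.23 and 349 to 444 CPM. The part of T cell RNA in the TRIM differences was not tested.

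**Figure D1:**
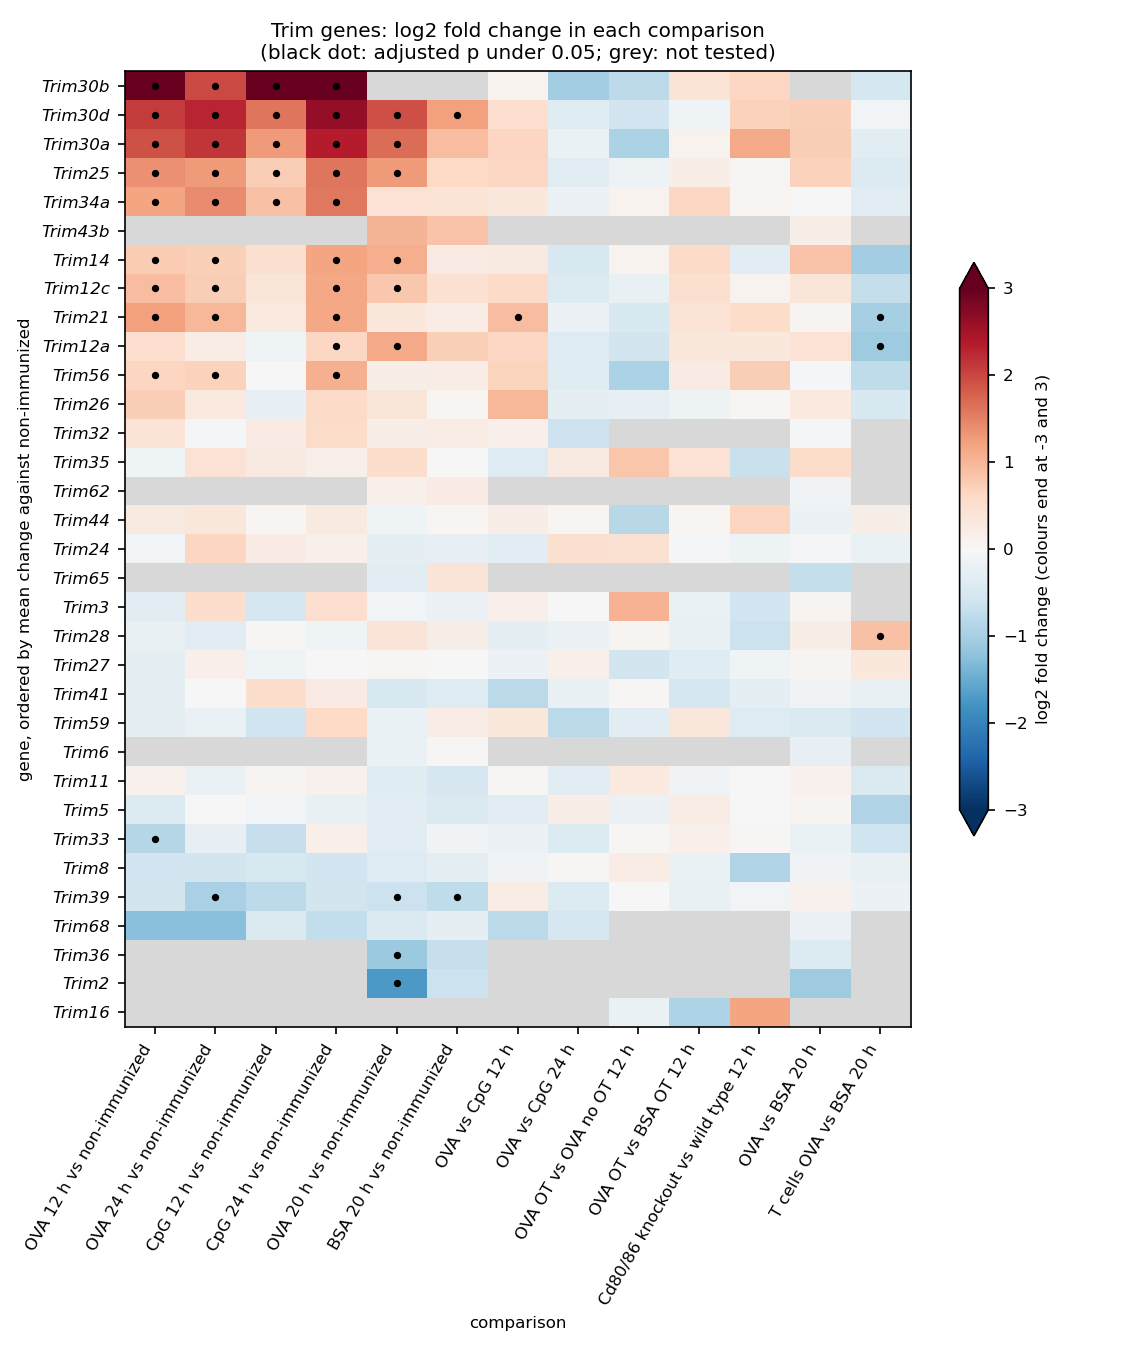
Log2 fold change (color scale, tested over reference) of each TRIM gene tested in at least 1 comparison (rows) in each comparison (columns), with marks at those called at an adjusted p under 0.05. Trim25, Trim30a, Trim30b, Trim30d and Trim34a carry a mark in all 4 time-course comparisons with non-immunized DC.

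Trim30a, which in mice restrains Toll-like receptor signalling by promoting loss of the adaptors TAB2 and TAB3, had 1222 and 1146 CPM at 12 h and 1732 and 1037 CPM at 24 h after OVA-CpG nanoparticles. After CpG alone, Trim30a had 837 and 674 CPM at 12 h and 1861 and 1332 CPM at 24 h, against 359.7 and 267 CPM in non-immunized mice. All 8 libraries from immunized mice lay above both non-immunized libraries. The log2 fold change over non-immunized DC was 1.92 ± 0.25, adjusted p = 6.26e-05 at 12 h and 2.14 ± 0.25, adjusted p = 1.8e-05 at 24 h after OVA-CpG, and 1.27 ± 0.25, adjusted p = 0.00207 and 2.34 ± 0.26, adjusted p = 1.12e-05 at the same times after CpG. Its neighbour Trim30d had 132 and 159.8 CPM at 12 h and 194 and 133 CPM at 24 h after OVA-CpG nanoparticles. After CpG alone, Trim30d had 84.4 and 123 CPM at 12 h and 243 and 180.1 CPM at 24 h, against 41.4 and 25.5 CPM in non-immunized mice. Again no immunized library reached down to the non-immunized ones. Trim30d differed from non-immunized DC by a log2 fold change of 2.11 ± 0.29 and 2.27 ± 0.29 at 12 h and 24 h after OVA-CpG and by 1.61 ± 0.30 and 2.63 ± 0.29 after CpG (adjusted p = 0.000102, 3.91e-05, 0.00142 and 1.14e-05). Both genes were called in these 4 comparisons under every alternative run except Trim30a at 12 h after CpG, which reached an adjusted p of 0.0592 without non-immunized replicate 2.

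Trim30b, another gene of the Trim30 group, had 78.4 and 63.3 CPM at 12 h and 18 and 39.9 CPM at 24 h after OVA-CpG nanoparticles. After CpG alone, Trim30b had 63.3 and 70.1 CPM at 12 h and 51.4 and 68.2 CPM at 24 h, against 5.17 and 9.57 CPM in non-immunized mice. It passed the filter on low counts only through libraries of immunized mice, where it was high. Its calls against non-immunized DC are therefore no support for a change. Its log2 fold change at 12 h was 3.27 ± 0.38, adjusted p = 2.07e-05 after OVA-CpG and 3.16 ± 0.39, adjusted p = 4.42e-05 after CpG. At 24 h it was 1.99 ± 0.44, adjusted p = 0.00504 after OVA-CpG and 3.04 ± 0.39, adjusted p = 6.13e-05 after CpG, and the OVA-CpG call at 24 h was lost without non-immunized replicate 1 (adjusted p = 0.08) or OVA-CpG 24 h replicate 2 (adjusted p = 0.151). The OVA-CpG libraries at 24 h lay below those at 12 h, and Trim30b was the 1 member called between the times after OVA-CpG (-1.28 ± 0.34, adjusted p = 0.0256), where 8.9% of all genes were called (5.03% higher and 3.87% lower). That call was lost without OVA-CpG 12 h replicate 1, OVA-CpG 12 h replicate 2 or OVA-CpG 24 h replicate 1 (adjusted p = 0.193, 0.0588 and 0.269).

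Trim34a, whose function is less well described, had 147 and 134 CPM at 12 h and 154 and 174 CPM at 24 h after OVA-CpG nanoparticles. After CpG alone, Trim34a had 94.9 and 134 CPM at 12 h and 154 and 210.0 CPM at 24 h, against 61.3 and 61.4 CPM in non-immunized mice. Immunized and non-immunized libraries did not overlap, and the log2 fold changes were 1.20 ± 0.23, 1.42 ± 0.23, 0.89 ± 0.23 and 1.59 ± 0.22 for OVA-CpG at 12 h and 24 h and CpG at 12 h and 24 h, all called. At 12 h after CpG that call was lost without CpG 12 h replicate 2 (adjusted p = 0.165) or either non-immunized library (0.102 and 0.11). Trim12c, a mouse relative of primate TRIM5, had 391 and 403 CPM at 12 h and 351 and 351 CPM at 24 h after OVA-CpG nanoparticles. After CpG alone, Trim12c had 241 and 296 CPM at 12 h and 409 and 518 CPM at 24 h, against 231 and 187 CPM in non-immunized mice. It was higher at both times after OVA-CpG (0.92 ± 0.19, adjusted p = 0.0037 at 12 h and 0.75 ± 0.19, adjusted p = 0.0146 at 24 h) and at 24 h after CpG (1.16 ± 0.19, adjusted p = 0.000705), and at 12 h after CpG its log2 fold change was 0.36 ± 0.20, adjusted p = 0.25. The OVA-CpG calls were lost without non-immunized replicate 2 (adjusted p = 0.0919 at 12 h and 0.192 at 24 h), and at 24 h also without OVA-CpG 24 h replicate 1 or 2 (0.0775 and 0.0601). Trim12a, the adjacent copy, had 237 and 250.5 CPM at 12 h and 197 and 204 CPM at 24 h after OVA-CpG nanoparticles. After CpG alone, Trim12a had 155 and 160.4 CPM at 12 h and 219 and 304 CPM at 24 h, against 164 and 179 CPM in non-immunized mice. Its libraries at 12 h after CpG lay below both non-immunized ones, and of the 4 comparisons only CpG at 24 h was called (0.63 ± 0.19, adjusted p = 0.0434). This call was kept in 3 of 8 alternatives, with an adjusted p of 0.277, 0.172 and 0.402 without non-immunized replicate 1, non-immunized replicate 2 and CpG 24 h replicate 2. Trim5, from the same group of copies, had 21.3 and 17.3 CPM at 12 h and 23.6 and 27.8 CPM at 24 h after OVA-CpG nanoparticles. After CpG alone, Trim5 had 15.2 and 35.8 CPM at 12 h and 15.4 and 26.8 CPM at 24 h, against 27.3 and 24.7 CPM in non-immunized mice; none of these 4 comparisons was called.

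Outside the cluster, the ligase Trim25, which attaches ubiquitin to the RNA sensor RIG-I, had 221 and 227 CPM at 12 h and 246 and 178 CPM at 24 h after OVA-CpG nanoparticles. After CpG alone, Trim25 had 163 and 125 CPM at 12 h and 236 and 291 CPM at 24 h, against 91.6 and 82.2 CPM in non-immunized mice. It was higher in all 4 comparisons, with log2 fold changes of 1.36 ± 0.22 and 1.28 ± 0.22 at 12 h and 24 h after OVA-CpG and 0.73 ± 0.22 and 1.61 ± 0.22 after CpG (adjusted p = 0.000398, 0.00063, 0.0333 and 9.23e-05). At 12 h after CpG the call was kept in 4 of 8 alternatives, and was lost in DESeq2 (adjusted p = 0.0722) and without CpG 12 h replicate 1 (0.24) or either non-immunized library (0.118 and 0.228). Trim21, the cytosolic receptor for antibody-coated particles, had 172 and 181 CPM at 12 h and 159.6 and 138 CPM at 24 h after OVA-CpG nanoparticles. After CpG alone, Trim21 had 97.3 and 87.2 CPM at 12 h and 154 and 177 CPM at 24 h, against 70.9 and 79 CPM in non-immunized mice. It was higher after OVA-CpG at 12 h (1.24 ± 0.20, adjusted p = 0.000389) and 24 h (0.99 ± 0.20, adjusted p = 0.00255) and after CpG at 24 h (1.15 ± 0.20, adjusted p = 0.000856), while at 12 h after CpG its log2 fold change was 0.30 ± 0.21, adjusted p = 0.373. Both non-immunized libraries lay below every immunized one for each of these genes.

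Trim14, an adaptor at mitochondria that takes part in RIG-I signalling, had 167 and 184 CPM at 12 h and 178 and 167 CPM at 24 h after OVA-CpG nanoparticles. After CpG alone, Trim14 had 149 and 142 CPM at 12 h and 233 and 238 CPM at 24 h, against 99 and 109 CPM in non-immunized mice. It was higher after OVA-CpG at 12 h (0.75 ± 0.18, adjusted p = 0.011) and 24 h (0.72 ± 0.18, adjusted p = 0.0132) and after CpG at 24 h (1.18 ± 0.18, adjusted p = 0.000322), but its log2 fold change at 12 h after CpG was 0.48 ± 0.19, adjusted p = 0.0945. Both OVA-CpG calls were lost without non-immunized replicate 1 (adjusted p = 0.123 and 0.139) or 2 (0.0667 and 0.0716), at 12 h also without OVA-CpG 12 h replicate 2 (0.0708) and at 24 h without OVA-CpG 24 h replicate 1 (0.0945). Trim56, a ligase that acts in DNA sensing through cGAS and STING, had 238 and 276 CPM at 12 h and 307 and 219.8 CPM at 24 h after OVA-CpG nanoparticles. After CpG alone, Trim56 had 162 and 162 CPM at 12 h and 375 and 308 CPM at 24 h, against 168 and 158 CPM in non-immunized mice. The libraries at 12 h after CpG fell within the range of the non-immunized ones, and the gene was called at 12 h (0.65 ± 0.20, adjusted p = 0.0409) and 24 h (0.69 ± 0.20, adjusted p = 0.0313) after OVA-CpG and at 24 h after CpG (1.06 ± 0.20, adjusted p = 0.00208). The OVA-CpG call at 12 h was kept in 3 of 8 alternatives and lost when any 1 of its 4 libraries was left out (adjusted p up to 0.242). At 24 h it was kept in 4 of 8, and was lost without either non-immunized library or OVA-CpG 24 h replicate 1 (adjusted p up to 0.347). Trim26 had 136 and 101 CPM at 12 h and 95.8 and 78.5 CPM at 24 h after OVA-CpG nanoparticles. After CpG alone, Trim26 had 69.1 and 49.8 CPM at 12 h and 89 and 119.5 CPM at 24 h, against 79.8 and 62.2 CPM in non-immunized mice, and none of its 4 comparisons passed the test; the log2 fold change at 12 h after OVA-CpG was 0.75 ± 0.24, adjusted p = 0.0501.

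**Figure D2:**
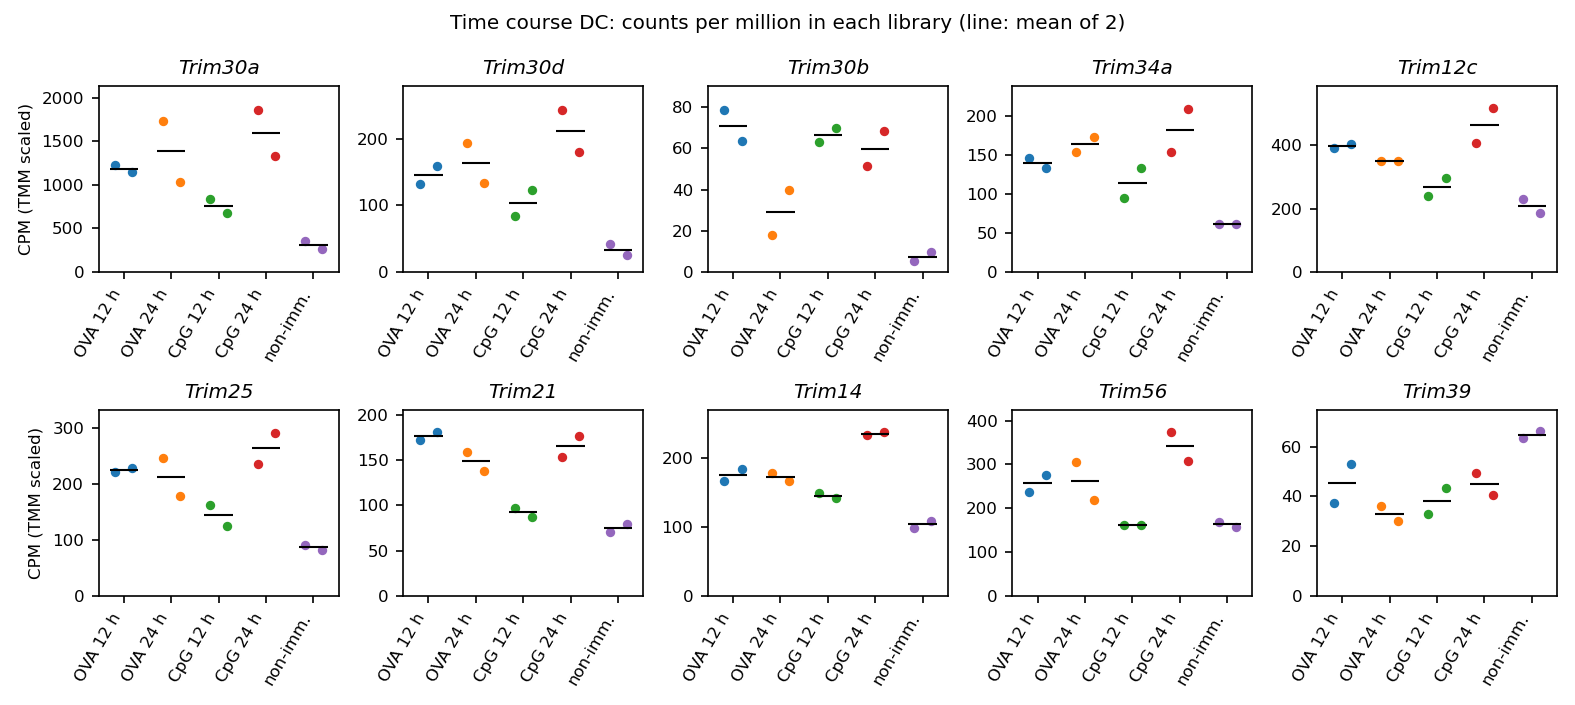
TMM-scaled CPM (vertical axes) of TRIM genes in each of the 10 time-course DC libraries (points, 2 per group), with the group means as lines. For Trim30a the 8 libraries from immunized mice lie between 674 and 1861 CPM and the 2 non-immunized libraries at 359.7 and 267 CPM.

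At 12 h after OVA-CpG 1 of 26 members was lower than in non-immunized DC, beside 4.04% of all tested genes. At 24 h it was again 1 of 26, beside 3.92%. After CpG no member was lower at 12 h or 24 h, beside 4.65% and 3.05% of all tested genes. Trim33, a chromatin cofactor of the TIF1 group that also modifies SMAD4, had 40.9 and 56.1 CPM at 12 h and 66.6 and 78.5 CPM at 24 h after OVA-CpG nanoparticles. After CpG alone, Trim33 had 57.4 and 49.8 CPM at 12 h and 123 and 76.6 CPM at 24 h, against 89.4 and 83.8 CPM in non-immunized mice. It was lower at 12 h after OVA-CpG (-0.86 ± 0.26, adjusted p = 0.0375), and the libraries at 24 h after CpG overlapped the non-immunized ones. Trim39, a RING ligase linked to the cell cycle and apoptosis, had 37.5 and 53.3 CPM at 12 h and 36.1 and 30.2 CPM at 24 h after OVA-CpG nanoparticles. After CpG alone, Trim39 had 32.8 and 43.6 CPM at 12 h and 49.6 and 40.6 CPM at 24 h, against 63.5 and 66.2 CPM in non-immunized mice. Each of the 8 immunized libraries lay below both non-immunized libraries, yet only OVA-CpG at 24 h passed the test (-0.97 ± 0.28, adjusted p = 0.0271). Each of these 2 calls was kept in 3 of 8 alternatives. The other TIF1 members, Trim24 and Trim28, were not called. Trim24 had 61.4 and 60.5 CPM at 12 h and 112 and 89.4 CPM at 24 h after OVA-CpG nanoparticles. After CpG alone, Trim24 had 82 and 70.1 CPM at 12 h and 63.3 and 78.9 CPM at 24 h, against 54.6 and 75 CPM in non-immunized mice. Its OVA-CpG libraries at 24 h were the highest. Trim28, the corepressor of KRAB zinc finger proteins, had 105 and 93.6 CPM at 12 h and 95.8 and 93 CPM at 24 h after OVA-CpG nanoparticles. After CpG alone, Trim28 had 114 and 126 CPM at 12 h and 85.6 and 123 CPM at 24 h, against 127 and 107 CPM in non-immunized mice. Trim8, which acts on SOCS1 and STAT signalling, had 76.7 and 72 CPM at 12 h and 66.6 and 83.3 CPM at 24 h after OVA-CpG nanoparticles. After CpG alone, Trim8 had 71.5 and 88.8 CPM at 12 h and 56.5 and 86.6 CPM at 24 h, against 106 and 116 CPM in non-immunized mice, and although all immunized libraries lay below the non-immunized ones none of the comparisons passed the test. Trim27 had 77.6 and 61.9 CPM at 12 h and 95.8 and 97.8 CPM at 24 h after OVA-CpG nanoparticles. After CpG alone, Trim27 had 75 and 85.7 CPM at 12 h and 68.5 and 102 CPM at 24 h, against 96 and 77.4 CPM in non-immunized mice, and it was not called in any of the 4.

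Leaving out 1 library moved these counts. The 10 calls at 12 h after OVA-CpG became 6 without non-immunized replicate 2, the 10 calls at 24 h became 6 without OVA-CpG 24 h replicate 1, and the 5 calls at 12 h after CpG became 3 or 2 without non-immunized replicate 1 or 2.

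Whether the particles carried OVA was asked at each time against CpG particles. At 12 h, 1 of 26 members was called, with 2.46% of all genes called (0.753% higher and 1.71% lower): Trim21 was higher after OVA-CpG (0.93 ± 0.20, adjusted p = 0.0195). Its OVA-CpG libraries, 172 and 181 CPM, both lay above the CpG libraries, 97.3 and 87.2 CPM. The call was lost when any 1 of these 4 libraries was left out (adjusted p between 0.074 and 0.23). Trim26 (0.99 ± 0.26, adjusted p = 0.0591), Trim12a (0.63 ± 0.20, adjusted p = 0.134) and Trim30a (0.65 ± 0.24, adjusted p = 0.243) also had higher OVA-CpG values without passing the test. At 24 h no member and no gene of the table (0%) was called in edgeR. An unadjusted p under 0.05 was found for 4 of 26 members and for 959 of 9428 genes. The lowest log2 fold change was that of Trim30b (-1.05 ± 0.34, adjusted p = 0.257). DESeq2 also called no member.

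Between 12 h and 24 h after CpG, 9 members were higher and none lower, where 7.63% of all genes were called (3.36% higher and 4.26% lower). These were Trim30a (1.07 ± 0.25, adjusted p = 0.0132), Trim30d (1.02 ± 0.27, adjusted p = 0.028), Trim12a (0.75 ± 0.20, adjusted p = 0.0277), Trim12c (0.80 ± 0.19, adjusted p = 0.0181), Trim21 (0.85 ± 0.20, adjusted p = 0.0168), Trim25 (0.88 ± 0.21, adjusted p = 0.0188), Trim14 (0.70 ± 0.18, adjusted p = 0.0273), Trim56 (1.07 ± 0.21, adjusted p = 0.00424) and Trim59 (1.20 ± 0.34, adjusted p = 0.0378). Trim59, a membrane-associated ligase, had 45.2 and 41.7 CPM at 12 h and 36.1 and 54.3 CPM at 24 h after OVA-CpG nanoparticles. After CpG alone, Trim59 had 34 and 35.8 CPM at 12 h and 47.9 and 104 CPM at 24 h, against 50.2 and 55 CPM in non-immunized mice, and 1 library at 24 h after CpG was high. Without that library, CpG 24 h replicate 2, the adjusted p was 0.614. The count of 9 became 0 with CpG 12 h replicate 2 left out, 3 with CpG 12 h replicate 1 left out and 4 with CpG 24 h replicate 2 left out. DESeq2 called 5 of them (Trim12c, Trim25, Trim30a, Trim30d and Trim56). Across the same groups the summed neutrophil markers lay at 72 to 619.7 CPM at 24 h and at 13175 to 17122 CPM at 12 h, with 7 of 7 tested markers lower at 24 h. Monocyte and macrophage markers (8 genes) lay at 857 to 1164 CPM at 24 h and at 2450.0 to 2814 CPM at 12 h, with 6 of 7 tested lower. Their part in the TRIM differences was not tested. The antigen-by-time term, that is the OVA-CpG over CpG difference at 24 h minus that at 12 h, was called for 1 member, Trim21 (-1.10 ± 0.28, adjusted p = 0.0385), beside 3.38% of all genes (2.69% higher and 0.689% lower). Trim12a (-1.03 ± 0.28, adjusted p = 0.0534), Trim56 (-1.03 ± 0.29, adjusted p = 0.0629) and Trim12c (-0.97 ± 0.27, adjusted p = 0.0641) had values of similar size that missed the threshold. Without 1 library the number called for this term lay between 0 and 6, with 0 without either CpG 12 h library, either OVA-CpG 12 h library or OVA-CpG 24 h replicate 2, and 6 without CpG 24 h replicate 1. DESeq2 called none for this term, with an adjusted p of 0.141 for Trim21.

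Summed levels of the cluster were set beside those of interferon-stimulated genes at large. The 9 cluster genes summed to 2232 and 2175 CPM at 12 h and 2675 and 1972 CPM at 24 h after OVA-CpG, 1494 and 1495 CPM at 12 h and 2955 and 2642 CPM at 24 h after CpG, and 891 and 758 CPM in non-immunized mice. A list of 33 interferon-stimulated genes summed to 34759 and 29237 CPM at 12 h and 20556 and 16683 CPM at 24 h after OVA-CpG, 17993 and 16142 CPM at 12 h and 20446 and 21091 CPM at 24 h after CpG, and 3712 and 2619 CPM in non-immunized mice. The interferon-stimulated sum was above every other group in both libraries at 12 h after OVA-CpG. For the cluster, of whose sum Trim30a was the largest part in each library, the libraries at 24 h after CpG and after OVA-CpG overlapped. The difference between the sums was not tested. All 33 listed genes were higher at 12 h after OVA-CpG, with the smallest adjusted p for Cxcl10, Cmpk2 and Rsad2 (log2 fold changes of 5.27, 3.93 and 4.77). At 24 h after OVA-CpG 31 were higher, and after CpG 32 were higher at each time.

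Partners of the TRIM ligases were read in the same fits. Of 18 tested genes of the cytosolic and endosomal sensing pathway, 11 and 7 were higher at 12 h and 24 h after OVA-CpG and 8 at each time after CpG, with none lower in these comparisons. The sensor Ifih1 (2.95), the transcription factor Irf7 (2.97) and the nucleic acid sensor Zbp1 (2.72) had the smallest adjusted p at 12 h after OVA-CpG, where log2 fold changes are in brackets. All 5 genes of ISG15 conjugation, a ubiquitin-like pathway, were higher in each of the 4 comparisons, among them the modifier Isg15 itself (4.31 at 12 h after OVA-CpG). Of 8 ubiquitin-conjugating enzymes that serve RING ligases, 1 was higher at 12 h after OVA-CpG (Ube2d3, 0.57), 1 at 12 h after CpG and none at 24 h after either. Pml, a TRIM protein under another symbol that builds nuclear bodies, was higher in all 4 comparisons, with log2 fold changes of 2.37 and 1.92 at 12 h and 24 h after OVA-CpG and 1.49 and 2.50 after CpG.

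Summed levels of cell type markers differed between these groups. Summed T cell markers (8 genes) lay at 5471 to 5473 CPM in non-immunized libraries, above their 10 conventional DC markers at 1701 to 2673 CPM, whereas libraries from immunized mice had 1824 to 3728 CPM of T cell markers and 2842 to 8968 CPM of DC markers. Neutrophil markers (8 genes) reached 13175 to 17122 CPM at 12 h after CpG and 2237 to 2254 CPM at 12 h after OVA-CpG, and lay at 380.3 to 2372 CPM at 24 h after OVA-CpG, against 129 to 165 CPM in non-immunized libraries. Monocyte and macrophage markers had 2761 to 2915 CPM at 12 h and 915 to 939.7 CPM at 24 h after OVA-CpG, against 2221 to 2246 CPM in non-immunized libraries. Markers of migratory mature DC (6 genes) lay at 881 to 5595 CPM in immunized and 380.5 to 586 CPM in non-immunized libraries. B cell markers (8 genes) lay at 348 to 1932 CPM in immunized and 197 to 211 CPM in non-immunized libraries. Plasmacytoid DC markers (5 genes, among them the interferon-stimulated Bst2) lay at 1232 to 2306 and 708 to 835 CPM. Of the 4 tested plasmacytoid markers 1 was called lower in each comparison with non-immunized mice. The part of composition in the TRIM differences was not tested, and in bulk RNA fewer cells of a type and less RNA per cell cannot be told apart. Library totals were 612017 to 1329203 counts in the time course, 628404 to 1621784 in the costimulation experiment and 367209 to 2052904 in the experiment with 5 replicates.

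With 5 libraries per group at 20 h, 6 of 31 tested members were higher and 3 lower after OVA-CpG than in non-immunized DC, where 15.6% of all genes were called (9.59% higher and 6.04% lower). The 6 that rose were Trim30a, Trim30d, Trim12a, Trim12c, Trim25 and Trim14, and the 3 that fell were Trim2, Trim36 and Trim39. Median log2 fold change over the tested members was 0.07 and over all tested genes -0.01. After BSA-CpG 1 member was higher and 1 lower, against 5.45% of all genes (3.68% higher and 1.77% lower). Both comparisons share the 5 non-immunized libraries. Non-immunized replicate 3 and OVA-CpG replicate 3 stood apart from their groups. They had the lowest (367209 counts) and highest (2052904 counts) totals of the experiment. Their summed monocyte and macrophage markers, 1576 and 65.9 CPM, were the highest and lowest of their groups. Without both libraries, an alternative chosen after seeing the data, 8 members were called for OVA-CpG, all among the 9, and 3 for BSA-CpG.

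Trim30d had 64.7, 135, 46.2, 87 and 29.5 CPM after OVA-CpG, 32.5, 26.2, 54.7, 41.8 and 59.1 CPM after BSA-CpG and 18.8, 19.9, 22, 13.9 and 19.7 CPM in non-immunized mice. It was the 1 riser whose OVA-CpG libraries did not overlap the non-immunized ones, and the BSA-CpG libraries also lay above all 5 of them; the log2 fold changes were 1.94 ± 0.33, adjusted p = 0.000466 for OVA-CpG and 1.23 ± 0.34, adjusted p = 0.0364 for BSA-CpG. The BSA-CpG call was kept in 5 of 15 alternatives, and of the 10 libraries compared it was kept without BSA-CpG replicate 2 alone (adjusted p up to 0.101 without the others). Trim30a had 368, 536, 124, 374 and 144 CPM after OVA-CpG, 126, 108, 212, 188 and 276 CPM after BSA-CpG and 101, 92.9, 171, 67.4 and 75.8 CPM in non-immunized mice. OVA-CpG replicates 3 and 5 were low and overlapped the non-immunized range, which was set by replicate 3 at 171 CPM, and the log2 fold change was 1.67 ± 0.35, adjusted p = 0.00254, with 0.92 ± 0.35, adjusted p = 0.136 after BSA-CpG. Trim12a had 81.1, 85.5, 81.7, 65.6 and 33 CPM after OVA-CpG, 78.9, 27, 57.7, 40.9 and 51.1 CPM after BSA-CpG and 38.5, 37.6, 38.5, 23.4 and 24 CPM in non-immunized mice. Its OVA-CpG libraries overlapped the non-immunized ones through replicate 5 alone (1.14 ± 0.27, adjusted p = 0.00649). Trim12c had 123, 217, 84.6, 203 and 80.8 CPM after OVA-CpG, 94.7, 95.6, 162, 90.9 and 99.9 CPM after BSA-CpG and 90.6, 81.6, 82.5, 61.8 and 85 CPM in non-immunized mice, with 3 high and 2 low OVA-CpG libraries, and was called at 0.81 ± 0.25, adjusted p = 0.0315; it was kept in 7 of 15 alternatives.

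Trim25 had 75.4, 83.2, 99.4, 98 and 56.2 CPM after OVA-CpG, 80.8, 36.2, 55.3, 37.7 and 48.7 CPM after BSA-CpG and 40.6, 35.5, 57.8, 21.7 and 30.2 CPM in non-immunized mice. OVA-CpG replicate 5 fell just under the highest non-immunized library, and the other 4 lay above all of them (1.27 ± 0.24, adjusted p = 0.00111). Trim14 had 45.1, 106, 85.6, 64.1 and 45.7 CPM after OVA-CpG, 52, 32.4, 40.6, 26.2 and 40.8 CPM after BSA-CpG and 28.1, 39, 49.5, 29 and 24.7 CPM in non-immunized mice. OVA-CpG values of 2 libraries overlapped the non-immunized range, and the gene was called (1.09 ± 0.25, adjusted p = 0.0043). Trim30b, called in the time course, had too few counts here to be tested, with 20.5, 7.98, 3.94, 5.16 and 2.11 CPM after OVA-CpG, 3.71, 8.48, 8.83, 2.46 and 1.6 CPM after BSA-CpG and 1.04, 3.55, 2.75, 2.23 and 3.08 CPM in non-immunized mice. The 3 other risers of the time course were not called: Trim21 had 31.9, 37.6, 31, 39.8 and 33 CPM after OVA-CpG, 36.2, 28.5, 37.1, 25.4 and 34.4 CPM after BSA-CpG and 25, 29.1, 19.3, 28.4 and 31.4 CPM in non-immunized mice. Its log2 fold change was 0.32 ± 0.17, adjusted p = 0.212. Trim34a had 46.7, 52.4, 67.4, 63.4 and 35.1 CPM after OVA-CpG, 62.2, 44.7, 61.2, 52.4 and 41.6 CPM after BSA-CpG and 31.3, 56.7, 30.3, 40.7 and 32 CPM in non-immunized mice (0.44 ± 0.21, adjusted p = 0.152). Trim56 had 73.7, 61.6, 35.9, 55.3 and 66.1 CPM after OVA-CpG, 57.6, 55.5, 63, 56.5 and 67.1 CPM after BSA-CpG and 58.3, 59.6, 52.3, 39.6 and 50.5 CPM in non-immunized mice (0.16 ± 0.18, adjusted p = 0.567). The OVA-CpG and non-immunized libraries of these 3 genes overlapped, and whether their responses differ between the experiments was not tested.

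**Figure D3:**
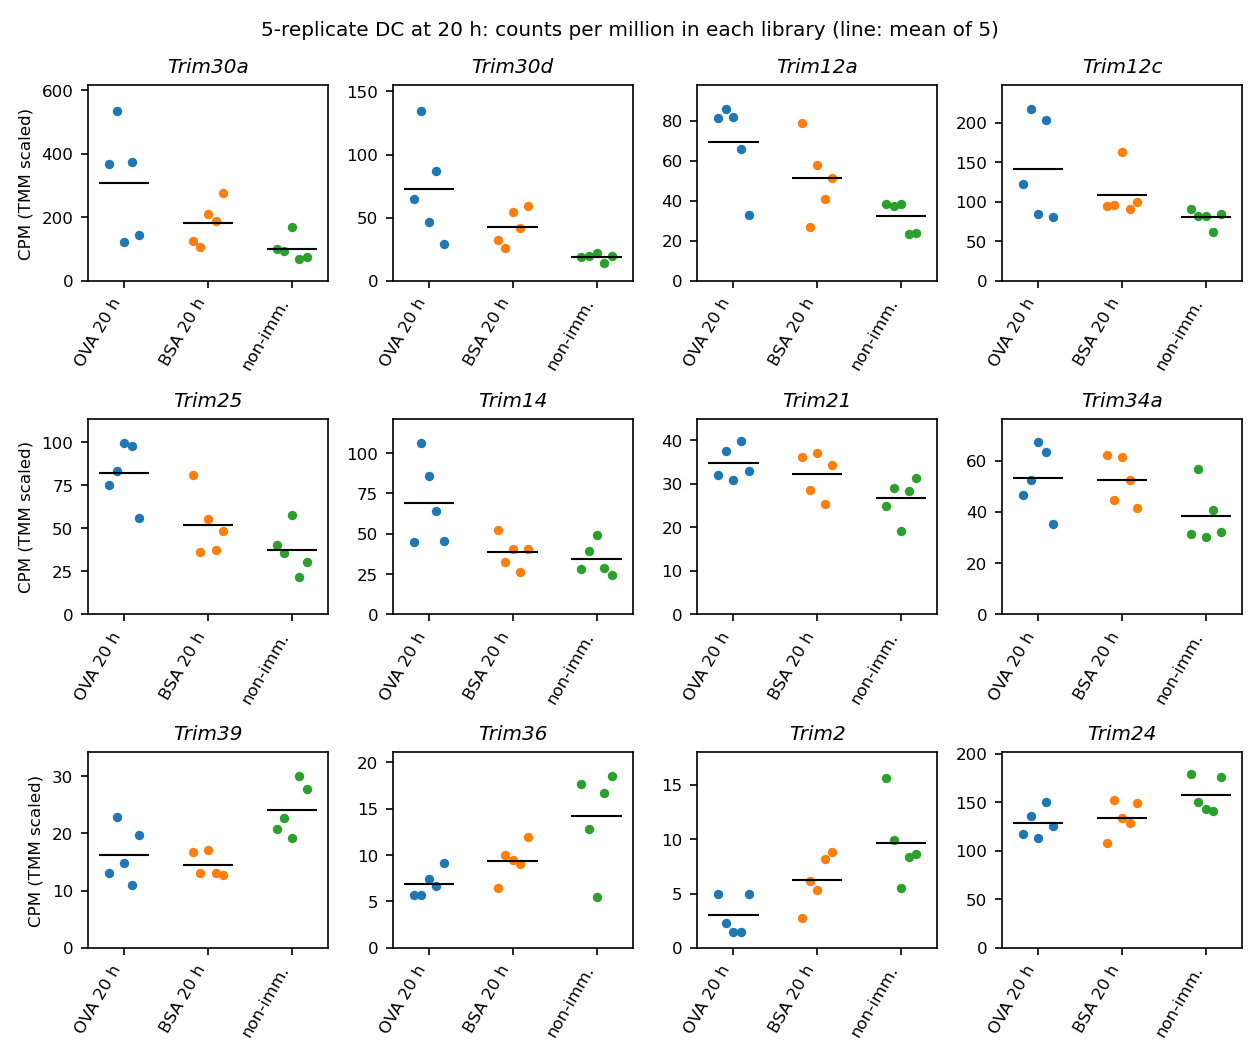
TMM-scaled CPM (vertical axes) of TRIM genes in each of the 15 DC libraries of the experiment with 5 replicates at 20 h (points), grouped as OVA-CpG, BSA-CpG and non-immunized. For Trim30d the OVA-CpG libraries lie between 29.5 and 135 CPM and the non-immunized ones between 13.9 and 22 CPM.

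Among the members that fell, Trim36, a ligase that binds microtubules, had 5.73, 5.7, 7.38, 6.63 and 9.14 CPM after OVA-CpG, 6.5, 10, 9.42, 9.01 and 12 CPM after BSA-CpG and 17.7, 12.8, 5.5, 16.7 and 18.5 CPM in non-immunized mice. OVA-CpG values lay below 4 of 5 non-immunized libraries, replicate 3 being the exception (-1.11 ± 0.27, adjusted p = 0.00727). Trim2, a ligase known from neurons, was low throughout and had 4.92, 2.28, 1.48, 1.47 and 4.92 CPM after OVA-CpG, 2.79, 6.17, 5.3, 8.19 and 8.79 CPM after BSA-CpG and 15.6, 9.93, 5.5, 8.36 and 8.63 CPM in non-immunized mice. All OVA-CpG libraries lay below every non-immunized library (-1.72 ± 0.40, adjusted p = 0.00576). Trim39 had 13.1, 22.8, 14.8, 11.1 and 19.7 CPM after OVA-CpG, 16.7, 13.1, 17.1, 13.1 and 12.8 CPM after BSA-CpG and 20.8, 22.7, 19.3, 30.1 and 27.7 CPM in non-immunized mice, and was lower after OVA-CpG (-0.64 ± 0.21, adjusted p = 0.0469) and after BSA-CpG (-0.77 ± 0.22, adjusted p = 0.0406). The Trim39 call held in 5 of 15 alternatives for OVA-CpG and 3 of 15 for BSA-CpG. Trim2 and Trim36 were kept for OVA-CpG in all 15.

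The TIF1 members were not called. Trim33 had 45.9, 44.5, 31, 49.4 and 52 CPM after OVA-CpG, 46.4, 54, 51.2, 52.4 and 51.1 CPM after BSA-CpG and 58.3, 56, 52.3, 51.3 and 55.5 CPM in non-immunized mice. Trim24 had 117, 136, 113, 150.3 and 126 CPM after OVA-CpG, 108, 152, 134, 129 and 149 CPM after BSA-CpG and 179, 149.6, 143, 141 and 176 CPM in non-immunized mice. For Trim28 the values were 113, 87.8, 120.0, 76.6 and 97 CPM after OVA-CpG, 105, 103, 68.9, 68.8 and 86.3 CPM after BSA-CpG and 57.3, 85.1, 77, 85.2 and 75.8 CPM in non-immunized mice. Each of the 3 had overlapping groups, with log2 fold changes after OVA-CpG of -0.31 ± 0.15, -0.30 ± 0.14 and 0.38 ± 0.17. Trim26 had 60.6, 54.7, 82.2, 67.8 and 48.5 CPM after OVA-CpG, 46.4, 38.6, 60.6, 58.1 and 54.3 CPM after BSA-CpG and 58.3, 42.5, 38.5, 56.3 and 47.5 CPM in non-immunized mice. Trim27 had 59.8, 68.4, 106, 80.3 and 84.4 CPM after OVA-CpG, 80.8, 84.8, 70, 65.5 and 82.3 CPM after BSA-CpG and 74, 70.9, 71.5, 75.2 and 90.6 CPM in non-immunized mice. Trim8 had 50.8, 51.3, 71.8, 63.4 and 64 CPM after OVA-CpG, 71.5, 56.3, 70.6, 56.5 and 70.3 CPM after BSA-CpG and 85.4, 77.3, 90.8, 60.7 and 88.7 CPM in non-immunized mice. None of these passed the test, and Trim8 was nearest to it (-0.39 ± 0.15, adjusted p = 0.0865). Trim5 had 20.5, 33.1, 18.7, 26.5 and 28.1 CPM after OVA-CpG, 15.8, 21.6, 29.4, 26.2 and 23.2 CPM after BSA-CpG and 53.1, 28.4, 24.8, 19.5 and 32.7 CPM in non-immunized mice. Trim6, another neighbour in the cluster, had 8.19, 6.84, 6.4, 8.84 and 4.22 CPM after OVA-CpG, 5.57, 6.94, 6.47, 10.6 and 11.2 CPM after BSA-CpG and 6.25, 12.8, 13.8, 4.46 and 6.16 CPM in non-immunized mice. Neither was called.

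When OVA-CpG was set directly against BSA-CpG, edgeR called no member and no gene of the table (0%). An unadjusted p under 0.05 was found for 6 of 31 members and for 561 of 9159 genes. DESeq2 called no member. Values for 4 of the risers were Trim14 (0.84 ± 0.24, adjusted p = 0.635), Trim25 (0.68 ± 0.23, adjusted p = 0.635), Trim30a (0.75 ± 0.33, adjusted p = 0.766) and Trim30d (0.71 ± 0.29, adjusted p = 0.766). Leaving out any 1 library also gave no call. A member called for OVA-CpG and not for BSA-CpG is thus not shown to differ between the antigens.

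In this experiment 32 of 33 interferon-stimulated genes were higher after OVA-CpG and 28 after BSA-CpG, with Ifit1 (log2 fold change 3.98), Isg15 (4.08) and Irf7 (4.39) among the smallest adjusted p after OVA-CpG. Of the 2 libraries low in Trim30a, OVA-CpG replicate 3 had an interferon-stimulated sum of 8334 CPM and OVA-CpG replicate 5 the lowest of its group, 4510.0 CPM, with the other 3 at 8321, 9687 and 8127 CPM. The sensing pathway had 5 of 15 tested genes higher in each comparison, and the ISG15 conjugation list 5 and 4 of 5. Among 10 tested ubiquitin-conjugating enzymes 3 were higher after OVA-CpG (Ube2e3, Ube2v1 and Ube2e2) and 2 after BSA-CpG (Ube2e3 and Ube2v1). Pml was higher after OVA-CpG (2.00) and BSA-CpG (1.09), and the related Mefv, which encodes pyrin, was lower after both (-1.03 and -1.46). Monocyte and macrophage markers (8 genes) lay at 65.9 to 256 CPM after OVA-CpG and at 474 to 1576 CPM in non-immunized libraries. Among 4 tested markers of plasmacytoid DC only Bst2, which is also on the interferon-stimulated list, was higher after OVA-CpG (1.85), and Tcf4 (-0.01), Ly6d (0.29) and Ccr9 (-0.64) were not called. Their part in the TRIM differences was not tested.

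The costimulation experiment asked what OT cells, antigen and the ligands CD80 and CD86 change at 12 h. No member was called in any of its 3 comparisons, in each of which 25 members were tested. For OVA with OT cells against OVA without them, edgeR called 2.6% of all genes (1.27% higher and 1.33% lower). An unadjusted p under 0.05 was found for 5 members and for 1631 of 9355 genes. For OVA against BSA, both with OT cells, 0.0107% of all genes were called, in each case lower. No member had an unadjusted p under 0.05, beside 850 of 9355 genes. For the knockout label against wild type, no gene was called (0%), and 2 members had an unadjusted p under 0.05, beside 1068 of 9355 genes. DESeq2 called no member in any of the 3. The knockout label could not be checked by absence of transcript: Cd80 had 4.26 and 12.4 CPM in the libraries labelled knockout, against 11.8 and 10.7 CPM in wild type, and Cd86 had 37.6 and 48.2 CPM, against 83.9 and 88.3 CPM. Whether those reads lie in the deleted part is not known.

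Trim30a had 1039 and 816 CPM in the libraries labelled Cd80/86 knockout, 469 and 379 CPM in wild-type OVA libraries with OT cells, 1067 and 566 CPM in OVA libraries without OT cells and 371 and 413 CPM in BSA libraries. Wild-type OVA and BSA libraries with OT cells were low and the 2 other groups high, with a log2 fold change of -0.94 ± 0.34, adjusted p = 0.18 with against without OT cells and of 1.13 ± 0.34, adjusted p = 0.297 for the knockout label over wild type. Trim56 had 126 and 120.0 CPM in the libraries labelled Cd80/86 knockout, 69.8 and 77.6 CPM in wild-type OVA libraries with OT cells, 162 and 123 CPM in OVA libraries without OT cells and 95.2 and 33.2 CPM in BSA libraries. With OT cells its log2 fold change was -0.96 ± 0.39, adjusted p = 0.233 against OVA without them. Trim30b had 137 and 86.6 CPM in the libraries labelled Cd80/86 knockout, 80 and 66.9 CPM in wild-type OVA libraries with OT cells, 167 and 86.5 CPM in OVA libraries without OT cells and 55.1 and 55.3 CPM in BSA libraries, and with OT cells its log2 fold change was -0.78 ± 0.35, adjusted p = 0.281. For Trim30d the values were 163 and 178 CPM in the libraries labelled Cd80/86 knockout, 120.0 and 88.3 CPM in wild-type OVA libraries with OT cells, 205 and 108 CPM in OVA libraries without OT cells and 119 and 111 CPM in BSA libraries, where OVA without OT cells replicate 2 fell within the range of wild-type libraries with OT cells. Trim8 had 42.6 and 43.3 CPM in the libraries labelled Cd80/86 knockout, 78.4 and 81.7 CPM in wild-type OVA libraries with OT cells, 68 and 69.9 CPM in OVA libraries without OT cells and 109 and 75.3 CPM in BSA libraries, and the libraries labelled knockout lay below all others (-0.90 ± 0.28, adjusted p = 0.315 against wild type). Natural killer cell markers (6 genes) were at 2365 to 5486 CPM in OVA libraries without OT cells and at 100.4 to 274 CPM in the other 3 groups. Monocyte and macrophage markers (8 genes) had 7039 to 8901 CPM in the libraries labelled knockout, 4445 to 4495 CPM in wild-type OVA libraries with OT cells, 5009.7 to 10918 CPM in those without and 2944 to 4840.5 CPM in BSA libraries. They were thus higher in the groups in which Trim30a was high, although none of 7 tested markers was called in these comparisons. Markers of migratory mature DC (6 genes) had 3072 to 3858, 7486 to 8637, 1564 to 2917 and 4471 to 12219 CPM in the same order of groups, lower in those in which Trim30a was high. The part of these cells in the TRIM values was not tested.

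For Trim12a the libraries had 151 and 117 CPM in the libraries labelled Cd80/86 knockout, 129 and 85.7 CPM in wild-type OVA libraries with OT cells, 147 and 173 CPM in OVA libraries without OT cells and 75.2 and 94.1 CPM in BSA libraries. Trim12c had 254 and 205 CPM in the libraries labelled Cd80/86 knockout, 245 and 182 CPM in wild-type OVA libraries with OT cells, 237 and 266 CPM in OVA libraries without OT cells and 195 and 112 CPM in BSA libraries. Trim34a had 88.7 and 76.7 CPM in the libraries labelled Cd80/86 knockout, 79.2 and 79 CPM in wild-type OVA libraries with OT cells, 69.3 and 76.7 CPM in OVA libraries without OT cells and 61.8 and 42.1 CPM in BSA libraries. In none of these cluster genes did a comparison pass the test; Trim34a over BSA was 0.62 ± 0.29, adjusted p = 0.565. Trim21 had 103 and 65.5 CPM in the libraries labelled Cd80/86 knockout, 58 and 57.6 CPM in wild-type OVA libraries with OT cells, 97.6 and 60.9 CPM in OVA libraries without OT cells and 58.5 and 31 CPM in BSA libraries. Trim25 had 158 and 143 CPM in the libraries labelled Cd80/86 knockout, 118 and 178 CPM in wild-type OVA libraries with OT cells, 173 and 153 CPM in OVA libraries without OT cells and 144 and 113 CPM in BSA libraries. Trim14 had 78.8 and 76.7 CPM in the libraries labelled Cd80/86 knockout, 81.6 and 118 CPM in wild-type OVA libraries with OT cells, 92.4 and 92.5 CPM in OVA libraries without OT cells and 55.1 and 77.5 CPM in BSA libraries. Differences of these 3 genes were not called in any comparison. Trim5 had 21.3 and 27.2 CPM in the libraries labelled Cd80/86 knockout, 29.8 and 17.4 CPM in wild-type OVA libraries with OT cells, 22.5 and 32.3 CPM in OVA libraries without OT cells and 38.4 and 6.64 CPM in BSA libraries. Trim26 had 60.3 and 65.5 CPM in the libraries labelled Cd80/86 knockout, 55.7 and 65.6 CPM in wild-type OVA libraries with OT cells, 76.4 and 67.7 CPM in OVA libraries without OT cells and 56.8 and 75.3 CPM in BSA libraries. Trim27 had 54.7 and 37.1 CPM in the libraries labelled Cd80/86 knockout, 55.7 and 45.5 CPM in wild-type OVA libraries with OT cells, 63.5 and 85.7 CPM in OVA libraries without OT cells and 70.1 and 62 CPM in BSA libraries. BSA replicate 3 stood apart for Trim5, at 6.64 CPM. Trim24 had 53.2 and 76.7 CPM in the libraries labelled Cd80/86 knockout, 83.1 and 57.6 CPM in wild-type OVA libraries with OT cells, 42.4 and 60.9 CPM in OVA libraries without OT cells and 75.2 and 71.9 CPM in BSA libraries. Trim28 had 54.7 and 61.8 CPM in the libraries labelled Cd80/86 knockout, 83.9 and 97.7 CPM in wild-type OVA libraries with OT cells, 63.5 and 108 CPM in OVA libraries without OT cells and 73.5 and 135 CPM in BSA libraries. Trim33 had 31.9 and 33.4 CPM in the libraries labelled Cd80/86 knockout, 38.4 and 24.1 CPM in wild-type OVA libraries with OT cells, 23.1 and 39.9 CPM in OVA libraries without OT cells and 21.7 and 34.3 CPM in BSA libraries. These TIF1 members were not called.

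**Figure D4:**
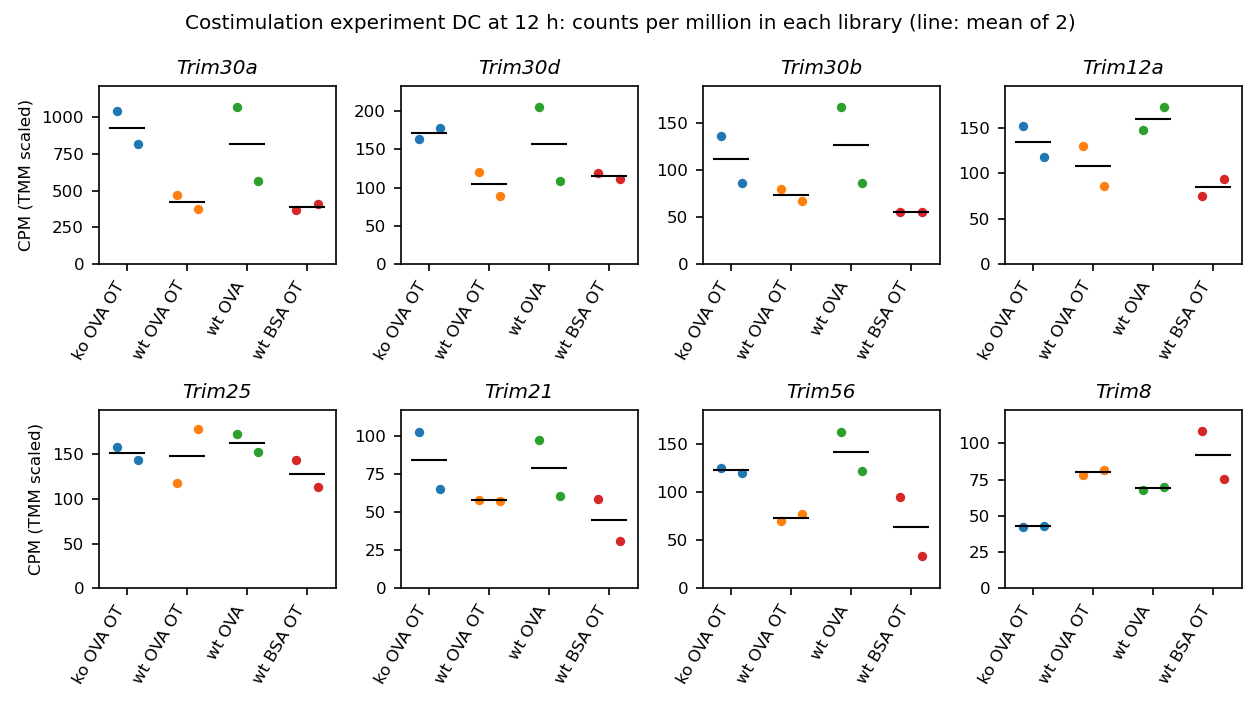
TMM-scaled CPM (vertical axes) of TRIM genes in each of the 8 DC libraries of the costimulation experiment at 12 h (points, 2 per group). For Trim30a the libraries labelled Cd80/86 knockout lie at 1039 and 816 CPM and the wild-type OVA libraries with OT cells at 469 and 379 CPM, and no comparison passed the test.

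In OT-II T cells at 20 h, 3 of 22 tested members were called, where 15.9% of all tested genes were (10.8% higher and 5.04% lower): Trim28 was higher after OVA-CpG than after BSA-CpG, and Trim12a and Trim21 were lower. Values are the normalized counts the authors deposited, and limma was run on log2(normalized count + 1). Trim28 had 119.7, 88 and 91.7 after OVA-CpG, against 63.8, 42.4 and 57.1 after BSA-CpG. All OVA-CpG libraries lay above all BSA-CpG libraries, with a log2 fold change of 0.87 ± 0.24, adjusted p = 0.0297. Trim21 had 34.6, 24.2 and 22.5 after OVA-CpG, against 66.7, 53 and 43.8 after BSA-CpG. Here all OVA-CpG libraries lay below (-0.98 ± 0.27, adjusted p = 0.0307). Trim12a had 46.2, 112 and 54.7 after OVA-CpG, against 139, 111 and 172 after BSA-CpG, and OVA-CpG replicate 2 overlapped BSA-CpG replicate 2 (-1.07 ± 0.31, adjusted p = 0.0368). The authors' deposited table gave adjusted p-values of 0.0275 for Trim12a, 0.0397 for Trim28 and 0.0403 for Trim21, which were its 3 members under 0.05 among 793 genes.

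Trim12c had 76.6, 126 and 84.9 after OVA-CpG, against 187, 119 and 163 after BSA-CpG (-0.71 ± 0.25, adjusted p = 0.0697). Trim56 had 44.1, 75.9 and 50.6 after OVA-CpG, against 74.2, 103 and 112 after BSA-CpG (-0.77 ± 0.26, adjusted p = 0.0661). For both, OVA-CpG replicate 2 was the library that overlapped the BSA-CpG range. Trim30a had 213, 415 and 199 after OVA-CpG, against 387, 246 and 365 after BSA-CpG. Trim30d had 34.6, 58.5 and 28.7 after OVA-CpG, against 56.4, 21.2 and 57.1 after BSA-CpG. Trim30b had 1.05, 12.1 and 10.8 after OVA-CpG, against 14.8, 2.65 and 15.3 after BSA-CpG. In each of these 3 genes OVA-CpG replicate 2 was the highest of its group and BSA-CpG replicate 2 the lowest of its own. Trim14 had 10.5, 43.7 and 25 after OVA-CpG, against 62.3, 31.8 and 54 after BSA-CpG. Trim34a had 43, 60.5 and 32.7 after OVA-CpG, against 62.3, 47.7 and 56 after BSA-CpG. Trim25 had 57.7, 49.7 and 54 after OVA-CpG, against 71.2, 66.2 and 76.4 after BSA-CpG. Its OVA-CpG libraries all lay below the BSA-CpG ones, with a log2 fold change of -0.40 ± 0.22, adjusted p = 0.217. The values were 18.9, 22.9 and 21.3 after OVA-CpG, against 40, 18.5 and 44.8 after BSA-CpG for Trim33 and 9.45, 14.1 and 16.4 after OVA-CpG, against 22.2, 7.94 and 19.4 after BSA-CpG for Trim24. Trim27 had 59.8, 47 and 58.7 after OVA-CpG, against 34.1, 60.9 and 39.7 after BSA-CpG. Of these members none was called. Trim26 had 30.4, 40.3 and 23.5 after OVA-CpG, against 41.5, 63.6 and 29.6 after BSA-CpG. Trim8 had 22, 26.9 and 33.3 after OVA-CpG, against 23.7, 37.1 and 35.7 after BSA-CpG. For Trim5 the values were 1.05, 22.2 and 8.65 after OVA-CpG, against 26.7, 10.6 and 8.15 after BSA-CpG, again not called.

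The number of called members in T cells became 0 without OVA-CpG replicate 3, 1 without OVA-CpG replicate 1, BSA-CpG replicate 1 or BSA-CpG replicate 3, and 7 without OVA-CpG replicate 2. Of 31 tested interferon-stimulated genes 1 was lower (Irf9) and none higher, and the median log2 fold change was -0.42 over members and 0.04 over all tested genes. Libraries also differed in cell type markers. T cell markers (8 genes) summed to 1444, 1465 and 1254 normalized counts after OVA-CpG and to 1801, 2195 and 1986 after BSA-CpG. Of these genes Il7r and Cd3d were called lower and the others were not called. Natural killer cell markers (3 genes in the table) summed to 42, 90.1 and 37.1 after OVA-CpG and to 23.7, 23.8 and 13.2 after BSA-CpG. Eomes was called higher among them and Gzma was not called. Conventional DC markers (4 genes in the table) summed to 275, 1847 and 1087 normalized counts after OVA-CpG and to 2065, 1568 and 1711 after BSA-CpG. Most of that sum was Cd74 (means 581 after OVA-CpG and 939 after BSA-CpG) and H2-Ab1 (467 and 805). Flt3 lay at 1.05 to 3.36 after OVA-CpG and 5.3 to 11.9 after BSA-CpG. B cell markers (7 genes) summed to 54.6, 593 and 294 after OVA-CpG and to 666, 418 and 516 after BSA-CpG. Which cells gave these sums was not tested. Cd8a, absent from mature CD4+ T cells, lay at 26.2 to 118 normalized counts after OVA-CpG and 92.7 to 136 after BSA-CpG, beside Cd4 at 86.7 to 151 after OVA-CpG and 122 to 131 after BSA-CpG. Depth also differed, with 155088 to 1316341 reads recovered from the values and each OVA-CpG library deeper than each BSA-CpG library. Their part in the TRIM differences was not tested.

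**Figure D5:**
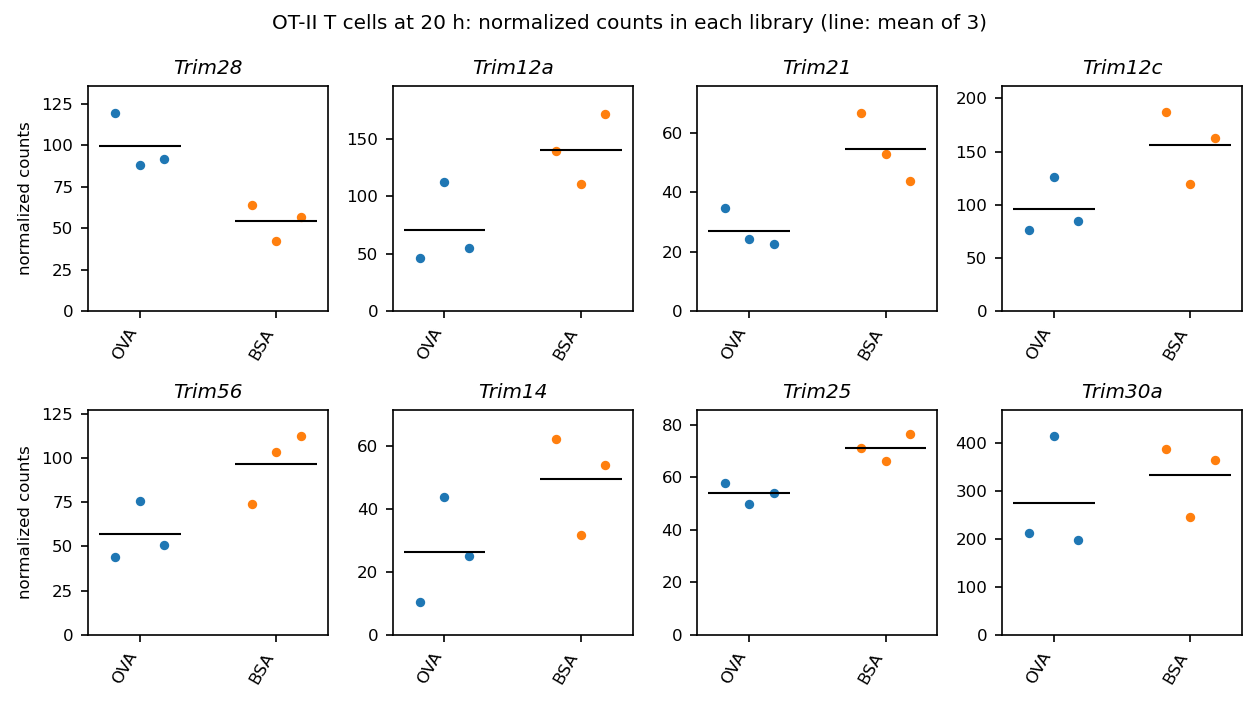
Normalized counts (vertical axes) of TRIM genes in each of the 6 OT-II T cell libraries at 20 h (points, 3 per group), with OVA-CpG left of BSA-CpG. Trim28 lies between 88 and 119.7 after OVA-CpG and between 42.4 and 63.8 after BSA-CpG, while the Trim21 groups are separated in the opposite direction.

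Across the DC experiments, 15 of the 33 tested members were called at least once, 10 of them higher and 4 lower than non-immunized in some comparison, and 18 were never called. Single DC comparisons called between 0% and 16.3% of all tested genes. The share of all genes called at least once was not computed, nor the share higher in all 4 time-course comparisons. These counts are therefore not a result about the family. Trim25, Trim30a, Trim30b, Trim30d and Trim34a were higher in all 4 time-course comparisons with non-immunized DC, and 3 of these, Trim25, Trim30a and Trim30d, were also called higher at 20 h after OVA-CpG. Trim30b passed the filter on low counts only through libraries of immunized mice. Of the 20 time-course calls of these 5 genes, Trim25 and Trim34a at 12 h after CpG were kept in 4 and 5 of 8 alternatives, Trim30b at 24 h after OVA-CpG in 6 and Trim30a at 12 h after CpG in 7.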

How the data were processed

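Counts of the 3 DC experiments were raw counts per gene, which the authors deposited as whole numbers. The submitters' processing notes name bcl2fastq, HISAT 0.1.6, HOMER and the mm9 build. For T cells the authors deposited a normalized signal, counts divided by a size factor, and all values (100%) were within 0.01 reads of a whole number of reads. Per the file headers that table also gives a log2 fold change and an adjusted p-value. Labels matched no sample for 4 columns, which were not used. No pair of libraries held identical values.

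Counts were tested with edgeR 4.0.16 (quasi-likelihood test, TMM, filterByExpr by group, all libraries of an experiment in 1 model), in R 4.3.3. A count test had also been planned for T cells, and because of the unit limma 3.58.1 with a trend was used instead on log2(value + 1), leaving out genes that did not reach 10 normalized counts in 3 libraries. Alternatives were DESeq2 1.42.0 (also its size factors in edgeR), no filter, a replicate block, each library left out and, for T cells, pseudocounts of 0.5 and 5 and count tests on recovered reads. Adjusted p-values are over all tested genes. Tables and plots were made with matplotlib 3.10.9, numpy 2.4.6 and pandas 2.3.3 in Python 3.11.15, and the scripts were tested on simulated data. Promoters came from RefSeq (GRCm38.p6), since no mm9 genome was used here, and transcripts from GENCODE M21. Members and gene lists were chosen with earlier results of these data known. Values in every library are given for members called with a mean of at least 10 CPM in a group and for a fixed set of TRIM genes. Trim2 is given although its mean was lower.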

Additional observations from a re-analysis of the deposited data

Results flagged for a closer look

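In the experiment with 5 replicates 6 of 93 groups of 5 libraries had 1 library far from the other 4, where chance gives about 1 in 20. Trim35 had 233 CPM in OVA-CpG replicate 3, with the next library at 128 CPM, and Trim68 had 13.7 CPM in OVA-CpG replicate 2, with the next at 8.44 CPM. Trim12c had 162 CPM in BSA-CpG replicate 3, with the next at 99.9 CPM, and Trim59 had 4.64 CPM in BSA-CpG replicate 1, with the next at 13.9 CPM. Trim27 had 90.6 CPM in non-immunized replicate 5, with the next at 75.2 CPM, and Trim43b had 17.7 CPM in non-immunized replicate 2, with the next at 6.16 CPM. OVA-CpG replicate 3 was also 1 of the 2 libraries that stood apart in library total and in monocyte and macrophage markers.

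The difference of Trim21 between OVA-CpG and CpG differed between times in edgeR's test of the antigen-by-time term: it was lower at 24 h than at 12 h by -1.10 on the log2 scale (adjusted p = 0.0385). That call was kept in 4 of 12 alternatives, and its adjusted p lay between 0.0119 and 0.164 over them.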

How the results depend on the processing

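Over all alternatives in which the member was tested, called log2 changes of single members kept their direction in 581 of 581 cases and were kept as calls in 443. A case without an adjusted p counts as kept here and in the other tallies of kept calls. The alternatives reuse the libraries on which these members were called. Trim30a, Trim30d, Trim21, Trim25 and Trim34a at both times after OVA-CpG against non-immunized were kept in all 8 alternatives, and Trim12a, Trim14, Trim2, Trim25, Trim30a, Trim30d and Trim36 for OVA-CpG at 20 h in all 15. Calls lost at least as often as kept were, against non-immunized, Trim56 after OVA-CpG (3 of 8 kept at 12 h, 4 at 24 h), Trim33 and Trim39 (3 of 8 each), Trim25 at 12 h (4) and Trim12a at 24 h (3) after CpG, and at 20 h Trim12c (7 of 15) and Trim39 (5) for OVA-CpG and Trim30d (5) and Trim39 (3) for BSA-CpG. Others were Trim12a, Trim14, Trim21 and Trim59 between times after CpG, Trim30b between times after OVA-CpG and Trim21 for OVA-CpG over CpG at 12 h (4 of 8 each), and Trim21 for the antigen-by-time term (4 of 12). In T cells Trim12a, Trim21 and Trim28 were kept in 7, 9 and 8 of 12. Without a filter on low counts the members called were 3 for OVA-CpG over CpG at 12 h (1 in the reported test), 2 for OVA-CpG at 24 h against 12 h (1) and 7 for the antigen-by-time term (1). DESeq2 gave 0 for OVA-CpG at 24 h against 12 h, 5 for CpG at 24 h against 12 h (9), 0 for the antigen-by-time term and 1 for BSA-CpG at 20 h (2). In T cells edgeR on recovered reads gave 5 (3). Deviations of same-numbered libraries had correlations over 0.1 in 3 of 9, 4 of 15, 0 of 3 and 2 of 20 pairs. These were pairs of the costimulation experiment, the experiment with 5 replicates, T cells and the time course. Between groups of 2 both replicates give the same correlation, so such pairs are not independent. Low correlations cannot exclude a pairing, and no label says whether numbers pair the samples. With the replicate block the counts were 2 for OVA-CpG over CpG at 12 h, 4 for the antigen-by-time term, 1 (Trim56) for OT cells against none and 0 for BSA-CpG at 20 h; OVA against BSA with OT cells shares only 1 replicate number and the block was not run. Leaving out 1 library gave 6 to 8 calls for OVA-CpG at 12 h, 6 to 8 at 24 h, 2 to 5 for CpG at 12 h and 9 to 12 at 24 h, each against non-immunized. It gave 0 to 0 for OVA-CpG over CpG at 12 h and 0 to 1 at 24 h, 0 to 1 between times after OVA-CpG, 0 to 10 after CpG and 0 to 6 for the antigen-by-time term. At 20 h it gave 7 to 10 for OVA-CpG, 0 to 1 for BSA-CpG and 0 to 0 between them, with 0 to 0 in each costimulation comparison and 0 to 7 in T cells. For BSA-CpG at 20 h every library of the 2 groups left out alone gave 0 calls, except non-immunized replicate 3 (Trim39) and BSA-CpG replicate 2 (Trim30d). The causes were not tested. The 34 members untested in DC had too few counts to pass the filter, and the part of depth in this was not tested. Another scaling moved the median of all genes by at most 0.03 (log2).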
